A study of Mus musculus with 14 samples.

Results

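Transcripts of 10 genes of glutathione conjugation and oxidative defense were followed across 14 bulk CT26 tumors. The genes are the glutathione transferases Gstm1, Gstm2, Gstm5, Gsta4, Gstp1, and Gstt1 and the enzymes Nqo1, Hmox1, Gclm, and Txnrd1, out of 53801 genes in the deposited files. They were chosen by name with results of these tumors already known, and Gstm2 leads the set because its level separated the responders. Their differences between groups are therefore given as descriptions, with a standard error (SE) and no p-value. CT26 is a mouse colorectal carcinoma line, here carrying ClonTracer barcodes and grown under the skin of both flanks of syngeneic female Balb/c mice aged 6 to 8 weeks. All mice were injected with antibody from day 7, every 3 days for 5 doses. The control IgG group holds 5 tumors of 4 mice (14L, 14R, 16R, 17R, and 20R), where L and R are the flanks. Anti-PD-1 antibody was given to the other mice, whose tumors were sorted by size after treatment into 5 responders of 4 mice (24L, 26R, 30L, 30R, and 35L) and 4 non-responders of 3 mice (29L, 32R, 33L, and 33R). By the cutoffs the paper gives, tumors of a size between those of the responders and non-responders belonged to neither group. Response was thus defined by the outcome and not assigned.

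Glutathione transferases join the tripeptide glutathione to electrophilic compounds such as lipid peroxidation products and drugs, and the mu class genes (Gstm) stand side by side in a cluster. NRF2, encoded by Nfe2l2, is the transcription factor best known for driving this defense. It is held back by KEAP1 in unstressed cells and, once released, binds antioxidant response elements in front of genes such as Nqo1, Gclm, Txnrd1, and Hmox1. In a bulk tumor these transcripts come from cancer cells and from macrophages, T cells, fibroblasts, and vessels alike, and fewer cells of a type cannot be told apart from less RNA per cell.

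Gstm2 was the member whose level set the responders apart. Its level was 43.5 to 49.9 CPM (counts relative to library size, which edgeR scales by TMM) in the 5 responders, against 28.0 to 34.2 in the 5 control IgG tumors and 29.3 to 33.1 in the 4 non-responders. Gstm1 moved in the same direction by a smaller amount, while Gclm, Hmox1, Gstp1, Gstm5, Gsta4, and Nqo1 passed the test of edgeR in none of the 3 comparisons. Gstt1 was higher and Txnrd1 lower in responders than in control IgG tumors.

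The library of the non-responder 33R stood apart. The 25% of genes with the shortest transcripts exceeded the 25% with the longest by 0.876 on the log2 scale, as the median deviation from each gene's mean, against -0.191 to 0.318 in the other 13 tumors.

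Because the mu class genes are near copies of each other, it was first checked whether their reads could be told apart. RSEM divides a read that matches several genes among them, which leaves fractional counts. The expected counts of Gstm1, Gstm2, Gstm5, Gstm4, and Gstm7 were whole numbers (within 0.005) in all 14 tumors, so no read was left divided between them, as were those of Gsta4, Gstt1, Nqo1, Hmox1, and Txnrd1. Over the 16840 genes with a count above 0 in every tumor, 72.8% were whole throughout. Gstp1 and Gclm were the exceptions, with fractional counts in 14 of 14 tumors. In the GENCODE M21 transcripts, none of the 1671 distinct stretches of 150 bases of Gstm2 and none of the 1620 of Gstm1 occurred in a transcript of another gene. For Gstp1, 17.6% of the 2050 stretches also occurred in Gstp2 or Gstp-ps, and for Gclm 1.65% of 6417 occurred in Ppia, Gm6061, or Gm10123. The coding sequences of Gstp1 and Gstp2 were 98.1% identical over 630 bases, so their levels are uncertain, whereas Gstm2 was 85.9% identical to Gstm1, 84.9% to Gstm7, 82.6% to Gstm4, and 71.1% to Gstm5.

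The following lines show, for the measured mu class genes, the 90 coding bases in which Gstm1 and Gstm2 differ least, bases 145 to 234 of the Gstm2 coding sequence, since this is where a read is hardest to place. Capitals mark bases that differ from Gstm2. Gstm1 has 2 such bases, Gstm4 and Gstm7 have 6 each, and Gstm5 has 20.
Gstm2: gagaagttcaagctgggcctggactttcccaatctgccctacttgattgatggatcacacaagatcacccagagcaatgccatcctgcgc
Gstm1: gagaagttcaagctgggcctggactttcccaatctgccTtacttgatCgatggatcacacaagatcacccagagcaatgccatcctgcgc
Gstm4: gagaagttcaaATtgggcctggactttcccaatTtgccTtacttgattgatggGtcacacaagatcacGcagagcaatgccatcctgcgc
Gstm7: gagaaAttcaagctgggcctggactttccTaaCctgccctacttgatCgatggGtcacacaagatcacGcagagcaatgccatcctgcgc
Gstm5: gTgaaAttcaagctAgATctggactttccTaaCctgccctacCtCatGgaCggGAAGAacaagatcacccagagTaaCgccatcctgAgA

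For contrast, bases 562 to 651, at the end of the coding sequence, hold 22 differences between the same pair, again in capitals. The longest run without a difference between the coding sequences of Gstm1 and Gstm2 was 60 bases, shorter than a read of 150 bases.
Gstm2: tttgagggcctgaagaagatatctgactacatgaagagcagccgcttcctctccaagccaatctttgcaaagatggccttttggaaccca
Gstm1: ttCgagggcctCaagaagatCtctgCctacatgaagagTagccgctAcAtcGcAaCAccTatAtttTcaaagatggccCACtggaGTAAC

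On mm10 all 7 mu class genes lie on chromosome 3. Gstm2 spans chr3:107981702-107986453 on the minus strand, Gstm1 chr3:108012255-108017973 on the minus strand, and Gstm5 chr3:107895821-107898686 on the plus strand. Gclm is on the same chromosome but far from the cluster, at chr3:122245557-122270732. The other members are on chromosomes 8 (Nqo1 and Hmox1), 9 (Gsta4), 10 (Gstt1 and Txnrd1), and 19 (Gstp1).

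The promoters of the members, as RefSeq gives them for GRCm38.p6 (250 bases before to 50 after a start site), were searched on both strands for the letters TGACNNNGC and TGAGNNNGC, the core of antioxidant response elements. A single position cannot match both on the same strand, but separate matches may overlap. RefSeq's table held 11 promoters of 8 members. Either motif was found in 5 of the 11, those of Gstm5, Gstp1, Gstt1, Gclm, and one of the starts of Txnrd1, and 27.8% of all 32851 promoters hold one too. The promoter of Gstm2 (chr3:107986371-107986670, minus strand) and both of Gstm1 had neither motif in this window. The same was true of Nqo1 and the other starts of Txnrd1, genes named above as NRF2 targets. Sequence outside the window was not searched. The promoters of Gstm2, the member that differed most clearly, and of Gclm (chr3:122245307-122245606, plus strand), which hardly differed, are printed for comparison, with the match in Gclm in capitals. It reads on the opposite strand and begins 134 bases before the gene's start. A match describes the letters and not a bound site.
Gstm2 promoter: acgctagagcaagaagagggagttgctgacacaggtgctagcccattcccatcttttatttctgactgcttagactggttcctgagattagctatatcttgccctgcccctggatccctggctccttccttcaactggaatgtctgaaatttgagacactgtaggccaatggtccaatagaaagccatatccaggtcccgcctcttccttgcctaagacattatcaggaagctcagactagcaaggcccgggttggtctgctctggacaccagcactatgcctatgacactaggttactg
Gclm promoter: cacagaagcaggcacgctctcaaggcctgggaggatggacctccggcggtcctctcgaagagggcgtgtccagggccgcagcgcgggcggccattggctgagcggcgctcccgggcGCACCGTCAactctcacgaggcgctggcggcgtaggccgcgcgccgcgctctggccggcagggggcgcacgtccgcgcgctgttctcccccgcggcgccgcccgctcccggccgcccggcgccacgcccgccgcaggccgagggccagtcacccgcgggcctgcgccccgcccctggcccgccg

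The levels spanned a wide range. On the TPM scale, which corrects for transcript length and so allows genes to be compared, the pi class gene Gstp1 was the most abundant member, with a median of 726 TPM over the 14 tumors (641.6 to 907). Hmox1, the heme-degrading enzyme, followed with 109 TPM, then Gclm with 91.8, Txnrd1 with 64.9, Gstm1 with 50.3, and Gstm2 with 46.8. These neighbors overlapped in their ranges over tumors, from Hmox1 down to Gstm2. Gsta4, an alpha class enzyme for lipid aldehydes, had a median of 17.3 TPM and overlapped with neither neighbor. Gstm5 (5.99 TPM), Nqo1 (2.89 TPM), and the theta class gene Gstt1 (1.72 TPM) were the lowest, and each overlapped with the next. Counted reads were correspondingly few for Gstt1, with 18 to 121 per tumor, against 993 to 2472 for Gstm2, so the low genes carry more counting error.

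**Figure D1:**
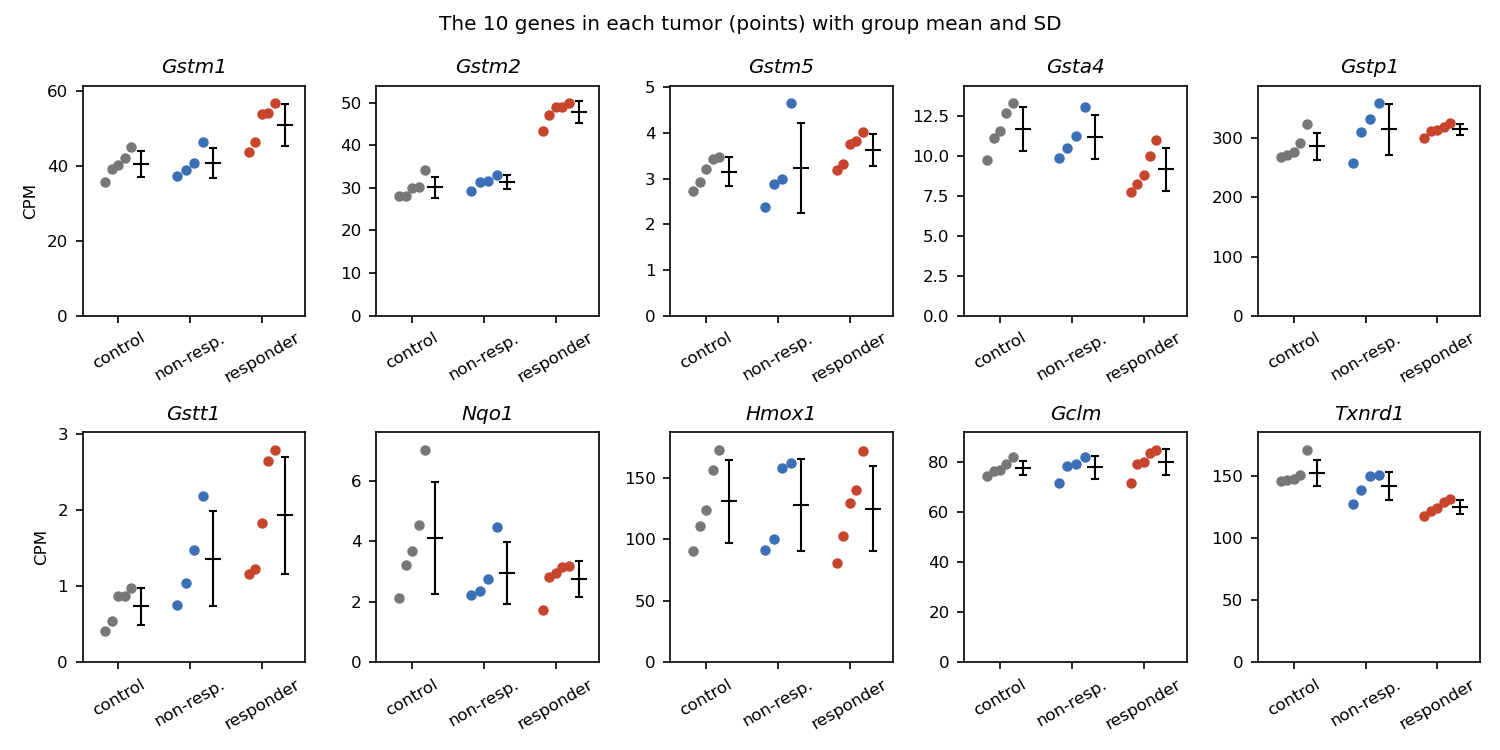
Level of each of the 10 genes in CPM (y axes, from 0, on separate scales) in the control IgG, non-responder, and responder tumors, with 1 point per tumor and the group mean with its SD beside the points. The 5 responder points of Gstm2 lie at 43.5 CPM or more and all 9 other tumors at 34.2 CPM or less, while the groups of Hmox1 and Gclm cover the same range.

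Each tumor of the mu class gene Gstm2 can be read singly. The control IgG tumors had 30.3 (14L), 34.2 (14R), 28.0 (16R), 30.1 (17R), and 28.2 (20R) CPM. The non-responders had 33.1 (29L), 31.5 (32R), 29.3 (33L), and 31.5 (33R) CPM. The responders had 49.9 (24L), 47.1 (26R), 43.5 (30L), 49.1 (30R), and 49.1 (35L) CPM. Non-responders and control IgG tumors thus overlapped almost entirely, and the responders overlapped with neither. The group means were 30.1 ± 2.49 (SD, n = 5), 31.4 ± 1.58 (n = 4), and 47.7 ± 2.61 CPM (n = 5). Responders exceeded control IgG tumors by 0.66 on the log2 scale (SE 0.0695, 1.58-fold) and non-responders by 0.61 (SE 0.0743, 1.52-fold), while non-responders and control IgG tumors differed by 0.06 (SE 0.0737). These comparisons share the responders, so the second is not separate from the first. A gene is named as called here when its adjusted p in edgeR's quasi-likelihood test, over all genes tested, was under 0.05. Gstm2 was called in both comparisons of the responders under all 7 other settings and without each of the 14 tumors in turn. Gstm2 was chosen with these differences known, so its calls only describe the fits. Without 33R its differences were 0.67 and 0.62.

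Gstm1, its neighbor in the cluster, had 45.2, 42.1, 39.2, 40.2, and 35.9 CPM in the control IgG tumors 14L, 14R, 16R, 17R, and 20R. The non-responders 29L, 32R, 33L, and 33R had 40.8, 38.8, 46.6, and 37.4 CPM. The responders 24L, 26R, 30L, 30R, and 35L had 54.3, 46.5, 43.7, 54.0, and 56.9 CPM. The 3 responders 24L, 30R, and 35L lay above every other tumor, and the remaining responders, 26R and 30L, fell within the range of the other groups. Responders exceeded control IgG tumors by 0.33 (SE 0.0912) and non-responders by 0.32 (SE 0.0971) on the log2 scale. The first difference was called and the second was not, although their sizes were alike. The call against control IgG was lost without 16R (0.32), 17R (0.34), 20R (0.29), 24L (0.31), 30R (0.31), or 35L (0.29). The difference from non-responders was called under 6 of the 7 other settings and without 26R (0.35), 30L (0.37), or 33L (0.40), so the side of the threshold on which Gstm1 falls is not settled by these tumors.

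The ratio of the 2 genes within a tumor does not depend on library scaling. Gstm2 divided by Gstm1, both in TPM, was 0.851 to 1.03 in the control IgG tumors, 0.806 to 1.07 in the non-responders, and 1.101 to 1.30 in the responders, which did not overlap with the others. Of the summed TPM of Gstm1 to Gstm7, Gstm2 made up 49.3% to 52.9% in responders and 41.4% to 47.8% in the other 9 tumors. Gstm1 made up 40.7% to 44.7% and 42.9% to 51.3%.

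Summing the counts of Gstm1 to Gstm7 removes any question of how reads were divided among them. The sum was 93.0 to 112 CPM in responders and 69.3 to 81.5 CPM in the other 9 tumors. On the log2 scale it was higher in responders than in control IgG tumors by 0.47 (SE 0.0705) and than in non-responders by 0.44 (SE 0.0752), and non-responders differed from control IgG tumors by 0.03 (SE 0.0747). The first pair of differences was called.

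**Figure D2:**
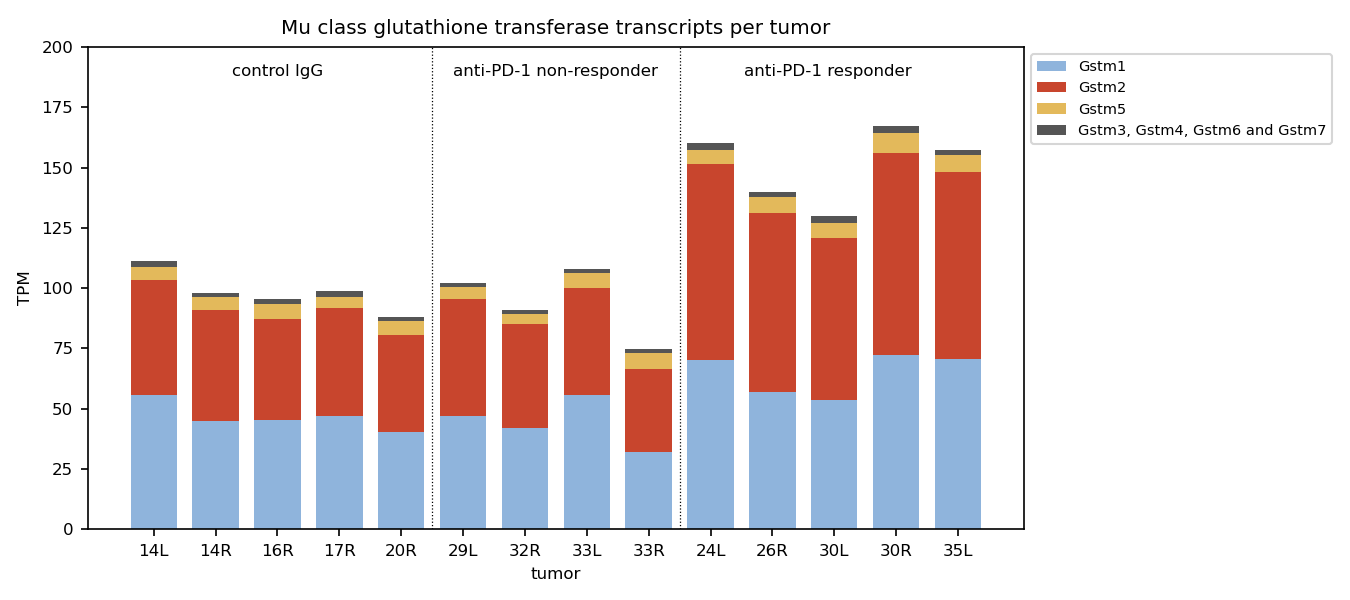
Stacked TPM of the mu class genes in each tumor (bars, y axis from 0), with tumors on the x axis ordered by group. The summed height is 129.8 to 167 TPM in responders and 74.8 to 111 TPM in the other tumors, and nearly all of it is Gstm1 and Gstm2.

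Among the remaining mu class genes, Gstm5 had 2.72 to 3.47 CPM in control IgG tumors, 2.39 to 4.66 in non-responders, and 3.19 to 4.03 in responders. The groups overlapped, and the responders differed from control IgG tumors by 0.20 (SE 0.167) and from non-responders by 0.17 (SE 0.178) on the log2 scale. Gstm4 (1.16 to 1.58, 1.25 to 2.19, and 1.504 to 2.01 CPM) and Gstm7 (0.256 to 0.540, 0.278 to 0.510, and 0.321 to 0.632 CPM) were low and not called, with differences between responders and control IgG tumors of 0.34 (SE 0.183) and 0.33 (SE 0.286). Gstm6 reached at most 12 reads in a tumor and Gstm3 at most 1, and neither was tested. The highest Gstm5 and Gstm4 values belonged to the non-responder 33R. Without 33R the difference of Gstm5 between responders and non-responders was 0.41 and not called.

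Of the other glutathione transferases among the 10 members, Gstt1 differed most in size and was the least abundant. It had 0.540, 0.875, 0.972, 0.868, and 0.411 CPM in the control IgG tumors (14L, 14R, 16R, 17R, and 20R), 0.747, 1.04, 1.47, and 2.19 CPM in the non-responders (29L, 32R, 33L, and 33R), and 2.80, 1.17, 2.64, 1.83, and 1.22 CPM in the responders (24L, 26R, 30L, 30R, and 35L). All responders lay above all control IgG tumors, and the non-responders overlapped with both. The difference between responders and control IgG tumors was 1.39 on the log2 scale (SE 0.351) and was called. It was not called without 20R (1.24) or without 24L (1.22). Responders and non-responders differed by 0.51 (SE 0.364), and non-responders and control IgG tumors by 0.88 (SE 0.369), neither of which was called. Single tumors moved these values, the first to 0.31 without 29L, 0.34 without 24L, and 0.84 without 33R, and the second to 0.55 without 33R.

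Gsta4 lay on the other side. Its level was 9.77 to 13.3 CPM in control IgG tumors, 9.89 to 13.1 in non-responders, and 7.74 to 10.99 in responders, with overlap between all groups. The log2 difference of responders from control IgG tumors was -0.35 (SE 0.121), which was not called by edgeR with all tumors. It was called by DESeq2 (-0.36), by limma-voom with mouse as a random effect (-0.38), and without 33R (-0.35) or 35L (-0.43). Against non-responders it was -0.28 (SE 0.128).

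Gstp1, the most abundant member, had 268 to 323 CPM in control IgG tumors, 258 to 359.7 in non-responders, and 301 to 326 in responders. The groups overlapped, and the log2 differences of responders were 0.14 (SE 0.0856) from control IgG tumors and under 0.01 in size from non-responders (SE 0.0908). On the TPM scale the picture differed, with 650.0 to 710 TPM in control IgG tumors, 641.6 to 749 in non-responders, and 761 to 907 in responders, which did not overlap with the others. Accordingly Gstp1 was called on log2(TPM + 1), by 0.28 and 0.25, and with an offset for gene length, by 0.24 and 0.21. On that TPM scale the median of all genes was itself higher in responders, by 0.085 against control IgG tumors and by 0.169 against non-responders. Since Gstp1 shares reads with Gstp2, its level also rests on how RSEM divided them. Gstp2 itself had 4.05 to 9.10, 3.99 to 7.38, and 3.43 to 4.73 CPM in the 3 groups and was not called, with a log2 difference of -0.70 (SE 0.235) between responders and control IgG tumors.

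The 4 members named above as examples of NRF2 targets did not rise together. The part of NRF2 in the differences of the members was not tested. Gclm, the regulatory subunit of the enzyme that makes the first step of glutathione synthesis, was the steadiest member. Its level was 74.4 to 81.7 CPM in control IgG tumors, 71.4 to 81.8 in non-responders, and 71.6 to 84.9 in responders. The groups covered the same range, and the highest tumor was 1.19 times the lowest. The log2 difference of responders was 0.04 from control IgG tumors (SE 0.0637) and 0.04 from non-responders (SE 0.0677).

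Txnrd1, the cytosolic thioredoxin reductase, was lower in responders than in control IgG tumors. The control IgG tumors 14L, 14R, 16R, 17R, and 20R had 147, 147, 151, 146, and 171 CPM, and the non-responders 29L, 32R, 33L, and 33R had 139, 151, 149.7, and 127 CPM. The responders 24L, 26R, 30L, 30R, and 35L had 118, 124, 132, 129, and 121 CPM. Every responder lay below every control IgG tumor, while the non-responder 33R fell among the responders. The log2 difference of responders from control IgG tumors was -0.29 (SE 0.0699) and was called, and it stayed called without each of the 14 tumors in turn. It was not called on log2(TPM + 1), where it was -0.14 and the median of all genes 0.085. From non-responders it was -0.18 (SE 0.0739), not called except with the gene length offset (-0.22).

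Hmox1, which degrades heme and is abundant in macrophages, varied more within the groups than between them. It had 90.3 to 173 CPM in control IgG tumors, 91.2 to 162 in non-responders, and 81.1 to 172 in responders. The log2 differences of responders were -0.07 (SE 0.227) and -0.03 (SE 0.241). Nqo1, a quinone reductase, was low, with 2.13 to 7.04 CPM in control IgG tumors, 2.21 to 4.47 in non-responders, and 1.72 to 3.17 in responders. The groups overlapped and the highest value belonged to the control IgG tumor 14L. Its log2 differences, -0.57 (SE 0.293) from control IgG tumors and -0.09 (SE 0.311) from non-responders, were not called. The first rested in part on 14L, since it was -0.295 without that tumor and -0.36 with 1 library per mouse, and the second was 0.19 without 33R and 0.04 without 30L.

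**Figure D3:**
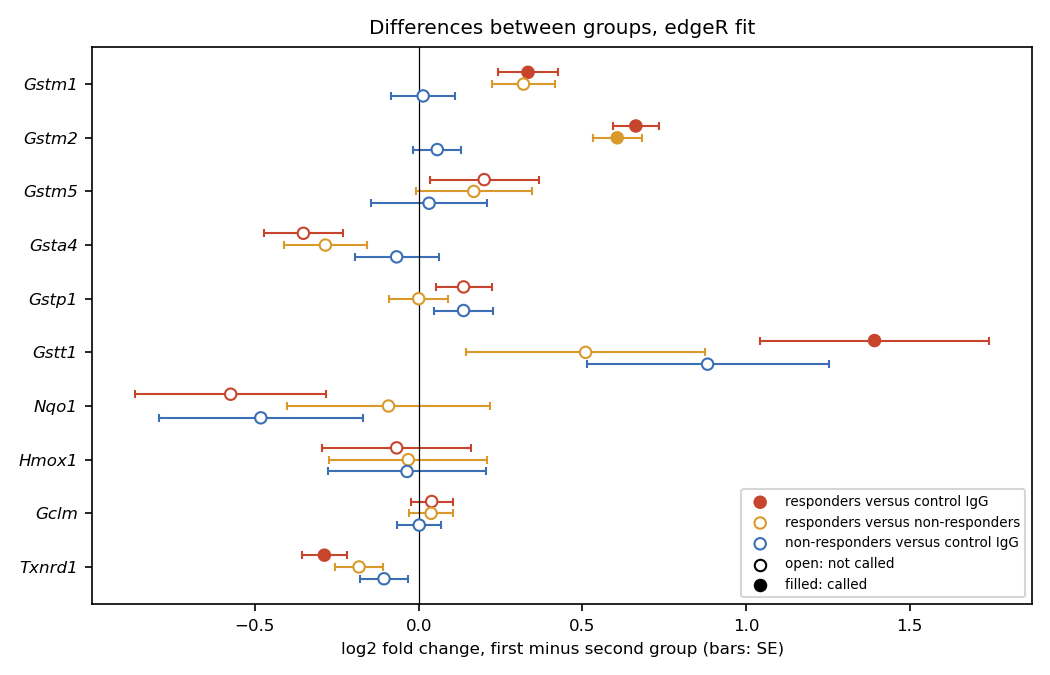
Log2 fold change (x axis, points) with SE (bars) of each gene in the 3 comparisons, from the edgeR fit. Filled points are called. The points of Gstm2 for responders lie at 0.66 and 0.61 and the point for non-responders against control IgG at 0.06, while those of Gclm and Hmox1 lie near 0 in all 3.

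Counted over the 10 members, 3 were higher in responders than in control IgG tumors (Gstm2, Gstm1, and Gstt1) and 1 was lower (Txnrd1). In that comparison 13.2% of all 16287 genes were called, 7.88% higher and 5.30% lower. The responders did not overlap with control IgG tumors for 3 members (Gstm2, Gstt1, and Txnrd1), and for 15.1% of all genes. Between responders and non-responders 1 member was called (Gstm2, higher), and 9.90% of all genes were, 5.08% higher and 4.82% lower. The groups did not overlap for 1 member, and for 12.8% of all genes. No member was called between non-responders and control IgG tumors and none had groups without overlap, where edgeR called 0% of all genes and 1.25% did not overlap. In this last comparison 758 genes had an unadjusted p under 0.05, and DESeq2 called 18. The median log2 difference of the members was 0.09, 0.02, and 0.01 in the 3 comparisons, against -0.01, 0.01, and 0.01 for all genes tested. Since the members were chosen with these differences known, nothing is read from their count. The count against control IgG tumors was 2 without 24L and without 20R (Gstm2 higher and Txnrd1 lower) and 5 without 33R. Between responders and non-responders it was 1 or 2 without a single tumor, 3 on log2(TPM + 1), and 4 with the gene length offset.

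In 3 mice both flanks were sequenced. Right minus left, Gstm2 differed by 0.18 on the log2 scale in mouse 14 (control IgG), 0.18 in mouse 30 (responder), and 0.10 in mouse 33 (non-responder). Each of these was smaller than the difference of the responders from either group. Gstm1 differed by -0.10, 0.31, and -0.32, up to the size of the difference between responders and the other groups. Hmox1 (0.79, -0.45, and -0.04), Nqo1 (-0.63, 0.85, and 1.0), and Gstt1 (0.65, -0.52, and 0.55) varied widely between flanks. Gclm (0.09, -0.14, and 0.02) varied little. The right tumor of mouse 33 is 33R, whose library stood apart by transcript length, so the values of this mouse rest on it.

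The rest of the pathway was read from 6 lists of 104 other genes, of which 98 were tested. Against control IgG tumors, 9 were higher and 7 lower in responders (16.3%, beside 13.2% of all genes), and against non-responders 5 were higher and 5 lower (10.2%, beside 9.90%). None was called between non-responders and control IgG tumors. Pooled over the lists, called genes thus lay in both directions. The lists were chosen with earlier results of these data known, so nothing is read from these shares. Single lists differed in the share called. Against control IgG tumors it ran from 9.09% (heme and iron handling) to 26.3% (other NRF2 target enzymes, 3 higher and 2 lower). Against non-responders it ran from 0% (glutathione transferases) to 18.2% (thioredoxins, peroxiredoxins, and related enzymes, 2 higher and 2 lower). Whether the share of a single list differed from that of all genes was not tested.

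Of the 9 genes of NRF2 and its regulators, Keap1 was higher and Sqstm1 lower in responders than in control IgG tumors (22.2%, beside 13.2% of all genes), and Sqstm1 was also lower than in non-responders. Nfe2l2, which encodes NRF2 itself, had 164 to 201 CPM in control IgG tumors, 136 to 181 in non-responders, and 174 to 189 in responders, and the responders differed by 0.02 (SE 0.0832) and 0.14 (SE 0.0885). Bach1, a repressor of Hmox1, differed by 0.10 (SE 0.0978) and 0.20 (SE 0.104), and neither gene was called in these comparisons in any setting. Keap1, which marks NRF2 for degradation, rose in responders against control IgG tumors by 0.28 (SE 0.0722, edgeR adjusted p = 0.0204), with 73.9 to 80.3 CPM in control IgG tumors and 88.0 to 104.9 CPM in responders. The groups did not overlap, and the call was lost without 20R (0.27) or 24L (0.24). Sqstm1, the autophagy adaptor p62 that binds KEAP1, fell against both groups, by 0.46 (SE 0.11, edgeR adjusted p = 0.0133) and 0.48 (SE 0.116, edgeR adjusted p = 0.023) on the log2 scale. Its responders had 336 to 480.5 CPM, its control IgG tumors 466 to 625 CPM, and its non-responders 514 to 592 CPM. Neither difference was called on log2(TPM + 1), and the second was not called without 24L, 30R, or 32R.

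Among 19 other enzymes known as NRF2 targets, Aldh3a1, an aldehyde dehydrogenase, rose most. It had 36.0 to 53.8 CPM in control IgG tumors, 22.7 to 48.8 in non-responders, and 69.3 to 119 in responders, without overlap. The log2 difference was 1.06 from control IgG tumors (SE 0.191, edgeR adjusted p = 0.00319) and 1.41 from non-responders (SE 0.208, edgeR adjusted p = 0.00475), and both were called in all settings and without each tumor in turn. G6pdx, which supplies NADPH through the pentose phosphate pathway, rose by 0.41 (SE 0.117, edgeR adjusted p = 0.0332) and 0.43 (SE 0.125, edgeR adjusted p = 0.0436), with calls that held in 6 and 4 of the 14 fits that left out a tumor. The first call was also lost on log2(TPM + 1) and the second with 1 library per mouse. Ephx1, the microsomal epoxide hydrolase, rose against control IgG tumors by 0.33 (SE 0.0934, edgeR adjusted p = 0.0298), in 8 of those 14 fits. It was not called with 1 library per mouse. Me1, the malic enzyme, fell by 0.40 on the log2 scale (SE 0.0983, edgeR adjusted p = 0.017) and Akr1b8, an aldo-keto reductase, by 0.30 (SE 0.0759, edgeR adjusted p = 0.0178), both against control IgG tumors and neither on log2(TPM + 1). The Akr1b8 call was also lost without 20R (-0.28).

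In glutathione synthesis, turnover, and export (20 genes), Chac1, which degrades glutathione and is induced by the integrated stress response, fell. It had 32.8 to 54.2 CPM in control IgG tumors, 27.8 to 40.6 in non-responders, and 16.6 to 28.1 in responders. The log2 difference from control IgG tumors was -0.94 (SE 0.168, edgeR adjusted p = 0.00307), called in every setting and without each tumor in turn, and that from non-responders was -0.63 (SE 0.176, edgeR adjusted p = 0.038), called in 8 of the 14 fits that left out a tumor. The difference from non-responders was also not called on log2(TPM + 1). Lancl1, a glutathione-binding protein, fell by 0.39 (SE 0.11, edgeR adjusted p = 0.0309) and 0.54 (SE 0.116, edgeR adjusted p = 0.0151) on the log2 scale, the first call held in 7 of those 14 fits and the second in all. The first was not called without the filter on low counts, and the second was not called on log2(TPM + 1). Glrx, a glutaredoxin, rose against control IgG tumors by 0.32 (SE 0.0898, edgeR adjusted p = 0.0287), in 8 of 14. Gclc, the catalytic partner of Gclm, was level at 48.6 CPM in responders, 49.0 in control IgG tumors, and 50.7 in non-responders (means).

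Of the 17 other glutathione transferases and related enzymes tested, Gsta1 rose against control IgG tumors, from a mean of 0.816 to 1.68 CPM (log2 difference 1.05, SE 0.298, edgeR adjusted p = 0.0323), a call that held in 7 of 14 fits without a tumor. Hpgds, the hematopoietic prostaglandin D synthase of the sigma class, fell by 0.61 on the log2 scale (SE 0.143, edgeR adjusted p = 0.0134), with 12.0 to 15.4 CPM in control IgG tumors and 7.45 to 11.4 CPM in responders, without overlap, and was not called on log2(TPM + 1). None of the 17 was called between responders and non-responders.

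Of 22 thioredoxins, peroxiredoxins, peroxidases, dismutases, and catalase tested, Prdx6 fell against both groups, by 0.33 (SE 0.0813, edgeR adjusted p = 0.0163) and 0.41 (SE 0.0858, edgeR adjusted p = 0.0137) on the log2 scale, and neither difference was called on log2(TPM + 1). The first was also not called without 24L (-0.30). It had 128 to 149.6 CPM in responders, 154 to 192 in control IgG tumors, and 171 to 206 in non-responders. Sod3, the secreted dismutase, rose against control IgG tumors by 0.94 (SE 0.282, edgeR adjusted p = 0.0405), in 8 of the 14 fits without a tumor. Sod3 was not called with the gene length offset. Gpx8 fell against non-responders by 0.59 on the log2 scale (SE 0.157, edgeR adjusted p = 0.0318), also in 8 of 14. Txnip, which binds thioredoxin, rose by 0.29 and 0.32 (edgeR adjusted p = 0.0479 and 0.0461), and Cat by 0.30 against non-responders (edgeR adjusted p = 0.0487), but these calls held in only 2, 3, and 3 of the 14 fits. Of 11 genes of heme and iron handling tested, Slc11a1, the metal transporter of phagocyte lysosomes, rose by 0.94 (SE 0.149, edgeR adjusted p = 0.00185) and 0.74 (SE 0.159, edgeR adjusted p = 0.0149), with 25.2 to 36.5 CPM in control IgG tumors, 33.6 to 39.2 in non-responders, and 43.0 to 79.4 in responders, called in all settings and without each tumor in turn. The other 10 were not called.

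**Figure D4:**
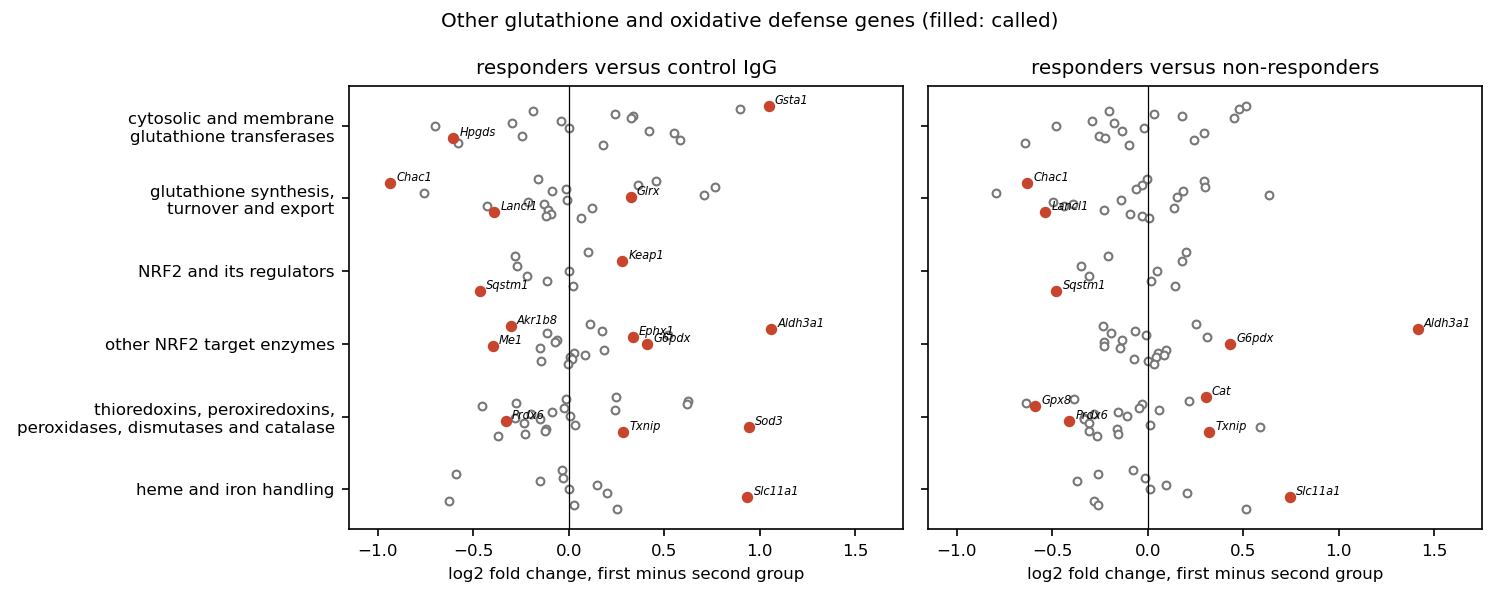
Log2 fold change (x axes) of the 98 tested genes of the 6 lists (rows) in responders against control IgG tumors (left) and against non-responders (right), with called genes filled and named. Called genes lie on both sides of 0 in the left panel (9 higher, 7 lower) and in the right panel (5 and 5), and Aldh3a1 is farthest to the right in both.

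Markers of T cells were higher in responders, as was Gstm2. The summed level of 10 T cell markers was 27.4 to 57.7 CPM in control IgG tumors, 34.4 to 41.9 in non-responders, and 60.7 to 112 in responders. All 10 were called higher in responders than in control IgG tumors and 9 of 10 than in non-responders. Of all genes, 7.88% and 5.08% were called higher in these comparisons. None of the 10 markers was at 0 in every tumor. The marker lists were chosen with earlier results of these data known. Pearson's r between the log2 of the T cell sum and the log2 CPM of Gstm2 was 0.901 over the 14 tumors. This is a description over tumors whose groups differ in both. The part of T cells in the Gstm2 difference was not tested.

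**Figure D5:**
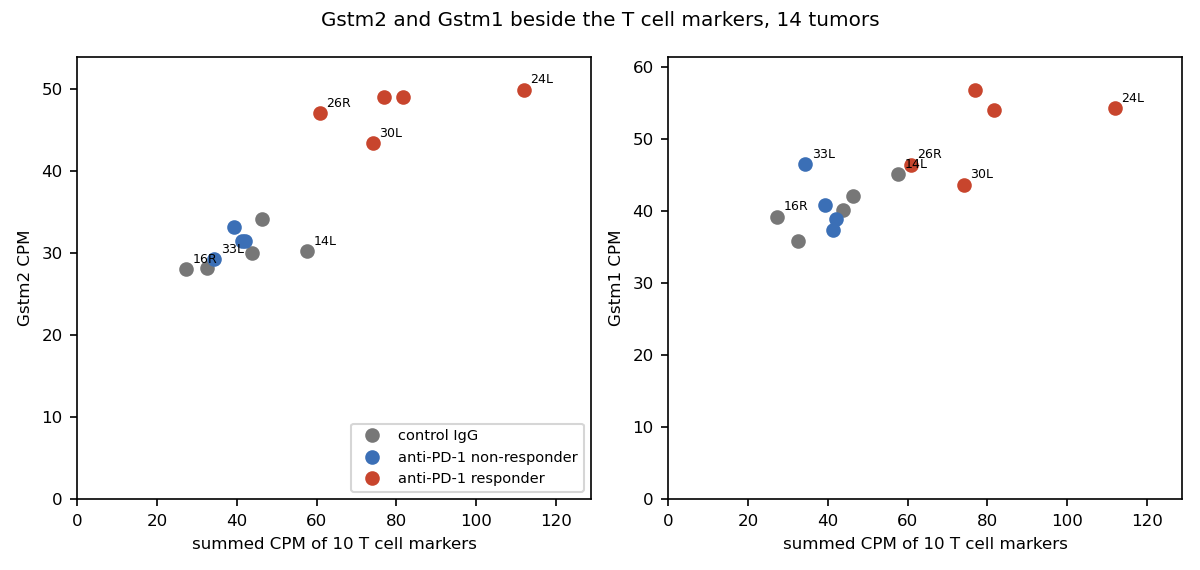
CPM of Gstm2 (left) and Gstm1 (right) on the y axes against the summed CPM of 10 T cell markers on the x axes, 1 point per tumor, colored by group, with some tumors named. Responders lie to the right of 60 CPM of T cell markers and, for Gstm2, above all other tumors.

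Among the other marker lists, the 10 macrophage markers summed to 1758 to 2044 CPM in control IgG tumors. Their sum was 1623 to 1973 CPM in non-responders and 1996 to 2409 CPM in responders. In each comparison of the responders 1 of 10 was called higher, and r with Gstm2 on the log2 scale was 0.822 over the 14 tumors. Of all genes, 7.88% were called higher and 5.30% lower in responders against control IgG tumors, and 5.08% and 4.82% against non-responders. The 10 endothelial markers summed to 205 to 294.5, 241 to 311, and 311 to 383 CPM, with 3 and 1 called higher, and the 10 fibroblast markers to 2468 to 3166, 2385 to 4441, and 2945 to 4938 CPM, with 3 higher and 1 lower and then 1 higher. The 8 neutrophil markers (43.0 to 144 CPM over all tumors, 2 and 1 called higher) and the 8 adipocyte markers (81.7 to 214 CPM, 1 and 1 higher) overlapped between groups. Erythroid markers were lower in responders, with 59.4 to 283 CPM against 71.6 to 1911 and 376 to 2067 CPM, and 3 and then 5 of 6 tested were called. Tissue of the injection site differed greatly between tumors, since epidermal markers summed to 8.36 to 1095 CPM and skeletal muscle markers to 28.1 to 1407 CPM, with none called. Markers of colon epithelium were scarce, summing to 13.6 to 48.1 CPM with 1 of 6 tested lower in responders than in control IgG tumors. Cdx2 and Vil1 reached at most 0.680 and 0.174 CPM, so these markers did not identify the cancer cells. The highest values of the other markers of this list ran from 0.634 (Cldn7) to 27.05 CPM (Krt8). Krt18 had 7.75 to 15.9 CPM. Which cells held these transcripts was not tested. Pearson's r with Gstm2, taken in the same way, was 0.582 for the endothelial, 0.549 for the fibroblast, and 0.059 for the adipocyte markers. It was -0.047 for skeletal muscle, -0.121 for neutrophil, -0.302 for epidermal, -0.554 for colon epithelial, and -0.629 for erythroid markers. The part of these cell types in the differences of the members was not tested.

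Finally, the genes whose log2 CPM followed Gstm2 most closely over the 14 tumors were Limd2 (Pearson's r 0.970), Aqp8 (0.958), Ifitm1 (0.954), Pbx2 (0.951), and Sash3 (0.950), among genes with a mean log2 CPM of at least 1. Members and unnamed genes, such as those known only by a Gm number or a Rik name, were left out of this ranking. The responders form a separate cluster for Gstm2, so these values in part restate the difference between groups. Over the 9 control IgG and non-responder tumors alone, r was 0.844, 0.753, 0.92, 0.835, and 0.756 in that order. These genes were chosen over all 14 tumors, those 9 among them. Of the members, Gstm1 followed Gstm2 with r 0.816 over 14 tumors and 0.155 over the 9 tumors alone. Txnrd1 ran opposite with -0.848 and -0.556, and Gstp1 had 0.449 and 0.649. Hmox1 (-0.063) and Gclm (0.245) followed Gstm2 least closely over 14 tumors, together with Nqo1 (-0.186). These correlations are descriptions over tumors that share libraries, mice, and scaling.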

How the data were processed

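Poly(A)-selected RNA of 14 CT26 tumors was sequenced, and groups were taken from the sample labels. Per the methods, reads were aligned to mm10 with STAR and quantified with RSEM under default settings, as stated for cell lines and referred to for tumors. The gene annotation used is not given in the sources used here. The authors deposited expected counts, which are unnormalized estimates of reads per gene, and the TPM values the authors deposited are divided by effective length and scaled to one total. The FPKM values the authors deposited were not used. Total counts were 33237744 to 48481461 per tumor, and 53620 of 53801 genes were matched to GENCODE M21. No library kit is stated to mark strand, so overlapping and antisense genes cannot be separated.

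Counts were rounded and fitted in R 4.3.3 with edgeR 4.0.16 (TMM, filterByExpr, quasi-likelihood test) over all 14 tumors in 3 groups, without covariates, which left 16287 genes. P-values were adjusted by Benjamini-Hochberg over all of them, and a gene was called at an adjusted p under 0.05. CPM values are scaled by TMM, and log2 CPM used a prior count of 2. Alternatives were DESeq2 1.42.0, its size factors, no filter, a loess offset for gene length (span 0.5), limma 3.58.1 on log2(TPM + 1), limma-voom with mouse as a random effect, 1 library per mouse, summed Gstm counts, and leaving out each tumor. Fits were tested on simulated data. Coding sequences and 150-base stretches were taken from GENCODE M21, with alignments by Biopython 1.88. Tumors of a mouse share a host, so p-values treat some related tumors as separate.

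The members, pathway lists, and marker lists were chosen with earlier results of these data known. Genes named are the members, the other Gstm genes, pathway genes called in a comparison of the responders (at most 5 per list), Nfe2l2, Keap1, and Bach1, and the 5 genes most like Gstm2. Gstp2 and Gclc, as close relatives or partners of members, and the markers Cdx2, Vil1, Cldn7, Krt8, and Krt18 were named after their values were seen.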

Additional observations from a re-analysis of the deposited data

Results flagged for a closer look

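In each of the 30 groups of tumors formed by 10 genes and 3 groups, the tumor at either end was compared with its nearest neighbor by Dixon's ratio of the gap to the whole range, on log2 CPM. Chance flags about 1 in 20 groups, or 1.5 of 30, and 2 were found. The responder 30L had 1.72 CPM of Nqo1, below the 2.83 to 3.17 CPM of the other 4 responders (ratio 0.813). The control IgG tumor 20R had 171 CPM of Txnrd1, above the 146 to 151 CPM of the other 4 control IgG tumors (ratio 0.793). Neither tumor changed the call of its gene when it was left out.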

How the results depend on the processing

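Gstm2 kept its direction and its call in both comparisons of the responders under the 7 other settings and without each tumor in turn, with log2 differences of 0.64 to 0.79 from control IgG tumors and 0.59 to 0.84 from non-responders. The summed Gstm counts, which stand in for the single gene, were also called in both, with smaller differences of 0.47 and 0.44. Since Gstm2 was chosen with its differences known, these calls only describe the fits. Called members of the other genes changed as given beside their values, and no called difference of a member changed sign. Counts of all genes moved more. For responders against control IgG, leaving out a tumor gave 1190 to 3385 genes, compared with 2147 with all tumors, with 1190 without 20R, 1192 without 24L, 1387 without 30R, and 3385 without 33R. Between responders and non-responders it gave 569 to 1978, against 1612, with 569 without 24L, 615 without 32R, 686 without 30R, and 793 without 33R. DESeq2 called 2634 genes there and limma-voom with mouse as a random effect 2973. Between non-responders and control IgG tumors, where edgeR called 0, DESeq2 called 18, the fit without a filter on low counts 3, and leaving out a tumor gave 0 to 5. On log2(TPM + 1), 1969 of 2160 genes called between responders and non-responders were higher, against 827 of 1612, and 1522 of 1827 against control IgG, compared with 1284 of 2147, while the median of all genes moved to 0.169 and 0.085. The cause was not tested. Of the 16 pathway genes called against control IgG tumors, 3 stayed called in every alternative, and of the 10 against non-responders 2 did. No paired analysis was possible because the groups share no replicate numbers, and tumors of a mouse belong to the same group.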
